A study of Mus musculus with 2 samples.

Results

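IgA plasma cells of the colon lamina propria were taken as the barcodes whose transcripts were dominated by immunoglobulin of the IgA class. A barcode was included where at least 5% of its unique molecular identifiers (UMIs, each standing for 1 captured transcript) lay on genes starting Igh, Igk or Igl, where at least 20 UMIs fell on the heavy-chain constant genes Igha, Ighm, Ighd, Ighe, Ighg1, Ighg2b, Ighg2c and Ighg3, and where Igha was the highest of these. The barcodes also had to be absent from the authors' deposited list of clustered cells. This gave 2132 of 19998 barcodes, 1001 of 10143 (9.87%, exact 95% interval 9.30 to 10.5%) in the library labelled transgenic and 1131 of 9855 (11.5%, 10.8 to 12.1%) in the wild type library. A further 5 and 2 barcodes met the count limits but were among the deposited cells. The barcodes were chosen by their immunoglobulin counts, so their immunoglobulin levels are given below as a description only.

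Plasma cells are the end stage of B cell development and secrete antibody continuously. In the gut wall they mostly make IgA, which is joined into dimers by the J chain (Jchain) and carried across the epithelium into the lumen. To build this output the cell enlarges its endoplasmic reticulum (ER) under the transcription factor Xbp1, while Prdm1 (Blimp-1) shuts down the B cell programme.

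The 2 samples were droplet single-cell libraries from 5′ ends of transcripts, each made from live CD45+ cells sorted from the colon lamina propria of 8-week-old C57BL/6 mice. All mice had drunk 2.0% dextran sulfate sodium (DSS), which injures the colon lining, for 7 days and plain water for 7 days more, and were killed on day 14. 1 library came from mice labelled E4BP4 transgenic, described as overexpressing E4BP4 (the protein of Nfil3) in macrophages only, and 1 from wild type mice. The promoter of the transgene and the number of mice in a library are not given in the sources used here. Nfil3 itself was not higher in the library labelled transgenic in the cluster with the highest macrophage marker C1qa, at 74.4 CPM (counts scaled to 1000000 per group) against 84.98 CPM in the wild type library, so the count tables do not show the transgene in that cluster. With 1 library for each genotype there is no replicate, no test and no p-value, and genotype cannot be told apart from animal, sort or library. Intervals beside a value cover counting error only.

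The library labelled transgenic held 58884332 UMIs and the wild type library 69346746 UMIs. IgA plasma barcodes took 35.9% and 37.9% of them. Their median depth was 20803 UMIs (544 to 77378) in the library labelled transgenic and 23810 UMIs (556 to 66120) in the wild type library, against 2235 and 2445 UMIs in the deposited cluster 0 B cells (2236 and 2410 cells). Without immunoglobulin genes the medians were 9098 and 9928 UMIs in IgA plasma barcodes and 2174 and 2392 UMIs in B cells. At least 2200 genes were found in 552 (55.1%) and 655 (57.9%) of the IgA plasma barcodes, while the deposited cells had over 200 and under 2200 genes. Levels below are therefore CPM over non-immunoglobulin UMIs, summed over all barcodes of a group, and a ratio carries an exact 95% binomial interval. The libraries shared 142 barcode sequences, of which 3 were IgA plasma barcodes in both. No doublet caller was run, and markers of other cell types are given beside the results they move with.

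Markers that the rule did not use fitted the label. Jchain (chr5:88519809-88527891, minus strand, mm10) had a median of 1067 UMIs per barcode (1 to 5177) in the library labelled transgenic and 1239 UMIs (0 to 4383) in the wild type library, against 3 and 2 UMIs per B cell. UMIs of each of Jchain, Mzb1 (a co-chaperone of antibody assembly) and Xbp1 were found in 928 barcodes (92.7%) and 1078 barcodes (95.3%), and of Sdc1 (syndecan-1, CD138) as well in 798 (79.7%) and 939 (83.0%). Thinned to 1000 UMIs per barcode, which left out 40 and 31 shallower IgA plasma barcodes and 98 and 115 B cells, Sdc1 was seen in 30.5% (27.6 to 33.5%) and 26.3% (23.7 to 28.98%) of IgA plasma barcodes, against 0.561% and 0.218% of B cells. Unthinned, B cells had a Sdc1 UMI in 1.79% and 0.996%. At the limit on constant-gene UMIs, the 9 and 3 barcodes with 20 to 29 of them had a median of 13 and 14 Jchain UMIs and of 0 and 1 Xbp1 UMIs. The 33 and 10 barcodes just outside, with 10 to 19, had medians of 13 and 8 Jchain UMIs and of 0 and 0.5 Xbp1 UMIs, so barcodes on either side of the limit were much alike. At the limit on the immunoglobulin share, 2 and 0 barcodes lay between 5 and 6%, and 1 and 1 lay between 4 and 5%.

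**Figure D1:**
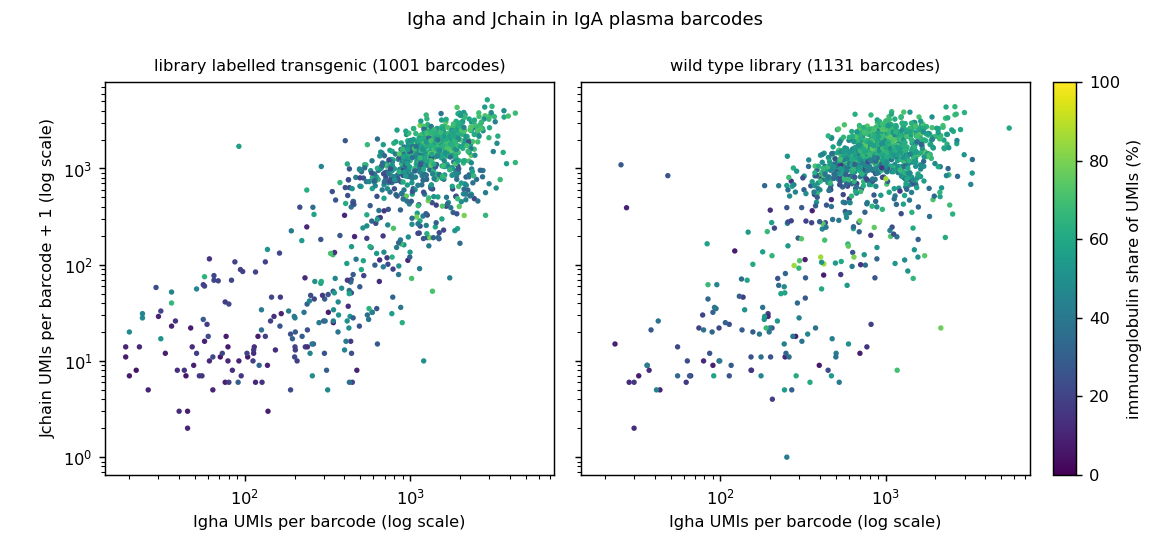
Jchain UMIs (plus 1) against Igha UMIs per IgA plasma barcode, both on log scales, in the library labelled transgenic (left, 1001 barcodes) and the wild type library (right, 1131 barcodes), coloured by the immunoglobulin share of UMIs. Most barcodes form 1 group near the medians of 1150 and 821 Igha UMIs, and a thinner tail with fewer Jchain UMIs has lower immunoglobulin shares in the library labelled transgenic and mixed shares in the wild type library.

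Immunoglobulin genes held a median of 51.1% of UMIs per barcode (5.41 to 79.4%) in the library labelled transgenic and 55.4% (7.03 to 85.7%) in the wild type library. Kappa variable segments were the largest portion, at 26.1% and 28.6% of all UMIs, followed by heavy variable segments at 14.4% and 14.8%. The kappa constant gene Igkc took 3.61% and 2.83%, and Jchain 5.58% and 5.49%. Lambda variable segments took 2.58% and 2.99%. Igha (chr12:113254830-113260236, minus strand), the IgA constant region, took 5.64% of UMIs in the library labelled transgenic against 3.89% in the wild type library.

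Constant genes of other classes were low, which the rule itself fixed by requiring Igha to be the highest. Igha held 99.0% and 99.2% of heavy-chain constant UMIs, and its median share per barcode was 99.9% and 100%. At least 3 Ighm (IgM) UMIs were found in 163 (16.3%) and 105 (9.28%) barcodes, and at least 3 Ighg2b UMIs in 151 (15.1%) and 223 (19.7%). Of the IgG genes, Ighg2c and Ighg3 were carried by few barcodes. Ighg2c had 2041 UMIs in the library labelled transgenic and 99 UMIs in the wild type library, but 5 barcodes held 74.0% and 78.8% of them. Ighg3 had 165 and 1841 UMIs, with 92.7% and 91.8% in 5 barcodes. Ighe (IgE) had 4 and 0 UMIs.

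Against cluster 0 B cells, the most different genes were receptors, secretory machinery and a few products of mature plasma cells. B cells here are a deposited cluster (Cd79a at 3799 and 3957 CPM, the T cell gene Cd3e at 10.6 and 4.05 CPM), so the contrast describes these barcodes and is no test. Of 11087 genes with at least 50 UMIs, 1691 (15.3%) were at least 2-fold higher and 1536 (13.9%) at least 2-fold lower in IgA plasma barcodes in both libraries. This split depends on the scaling, because immunoglobulin fills the plasma libraries: over all UMIs it was 682 higher and 5883 lower. The median log2 ratio of all these genes was -0.11 in the library labelled transgenic and -0.22 in the wild type library. Markers of other cell types were also called higher than in B cells. These were 9 of 12 T cell (Cd28 among them), 10 of 12 macrophage and monocyte and 5 of 9 neutrophil markers, and 3, 2 and 1 over all UMIs. Of 12 epithelial markers 1 was called higher, and of 4 mast cell markers 0 were higher and 3 lower. Their part in the differences from B cells was not tested.

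The receptors that bring plasma cells to mucosa and keep them alive led the ranking. Ccr10, the receptor for the epithelial chemokines CCL27 and CCL28, had 542 and 626.6 CPM in IgA plasma barcodes against 2.84 and 3.56 CPM in B cells, a ratio of 191 (116 to 342) in the library labelled transgenic and 176 (116 to 281) in the wild type library. Tnfrsf17 (BCMA, receptor for the survival factors APRIL and BAFF) had 436.9 and 422.1 CPM against 3.03 and 1.94 CPM, a ratio of 144 (88.8 to 253) and 217 (124 to 421). For both receptors the libraries differed from each other far less than from B cells. Jchain had 118638 and 118112 CPM against 1433 and 1073 CPM in B cells, where every deposited cluster had a median of 2 to 4 Jchain UMIs per cell. Slpi, a secreted protease inhibitor (chr2:164354070-164389095, minus strand), had 3142 and 2520 CPM against 47.8 and 55.5 CPM.

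The other genes among the 15 that ranked highest were Ly6c2, Derl3, the agouti gene a, Prg2, Fkbp11, Cacna1h, Tmem176a, Tmem176b, Sdc1, Tigit and Xbp1. Ly6c2, a surface antigen of mature plasma cells, had 2188 and 1521 CPM against 24.4 and 13.6 CPM in B cells. Tigit, an inhibitory receptor best known on T and NK cells, had 173.6 and 287.1 CPM against 3.21 and 4.05 CPM, and was seen in 52.2% and 70.1% of IgA plasma barcodes. Cacna1h, a T-type calcium channel, had 70.1 and 50.3 CPM against 0.756 and 0.162 CPM, where the wild type B cell value is a single UMI and the ratio of 311 has an interval of 55.6 to 12294. Prg2, an eosinophil granule protein in textbooks, had 230.6 and 187.7 CPM against 2.65 and 2.59 CPM and was found in 59.9% and 61.0% of IgA plasma barcodes.

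**Figure D2:**
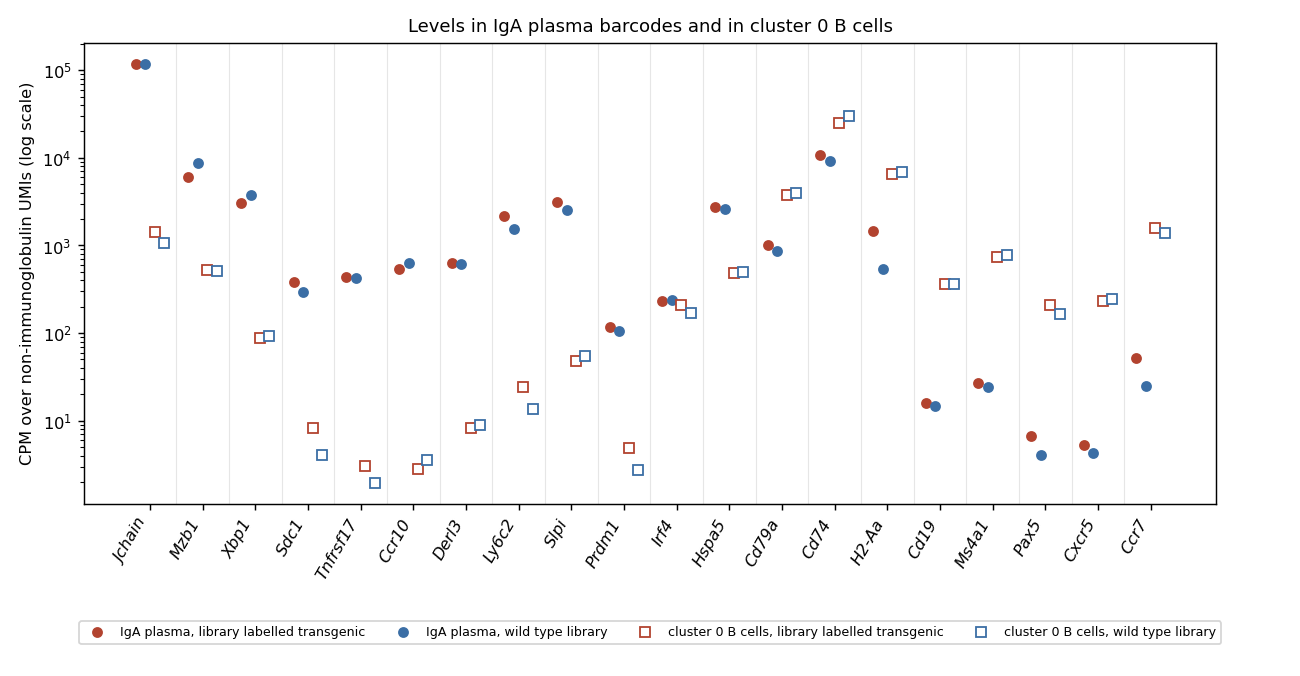
Levels of 20 genes in CPM over non-immunoglobulin UMIs (log scale), with filled circles for IgA plasma barcodes and open squares for cluster 0 B cells, red for the library labelled transgenic and blue for the wild type library. The plasma cell genes from Jchain to Prdm1 lie above the B cell levels in both libraries, Irf4 lies near them, and the genes from Cd79a to Ccr7 lie below.

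Among 12 plasma cell transcription factors, 8 were called higher and 1 lower, against 15.3% and 13.9% of all genes. Over all UMIs 6 were higher and 1 lower, against 682 and 5883 of 11087 genes. Xbp1 had 3063 and 3755 CPM in IgA plasma barcodes against 88.3 and 93.7 CPM in B cells. Prdm1 had 116.1 and 104.6 CPM against 4.92 and 2.75 CPM, a ratio of 23.6 (16.0 to 36.3) and 38.0 (23.7 to 65.5). Bhlha15 (Mist1, a regulator of secretory cells) was 55.2-fold and 46.7-fold higher, and Tent5c, which stabilises immunoglobulin transcripts, 29.4-fold and 35.4-fold. Irf4, which plasma cells need, was close to the B cell level, at 234.9 and 241.1 CPM against 210.1 and 169 CPM, a ratio of 1.12 and 1.43, which was 0.539 and 0.678 over all UMIs. Ikzf3 (Aiolos) was the member called lower, at 0.386 and 0.415 of the B cell level. Nfil3 was at 24.6 and 22.3 CPM, above the 5.11 and 6.31 CPM of B cells but under 0.1 of the level in the highest deposited cluster.

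Most genes of the secretory pathway were higher. Of 24 ER chaperones and folding enzymes, 22 were called higher and 0 lower, with a median log2 ratio of 3.04 in the library labelled transgenic and 3.22 in the wild type library. The exceptions were Canx (calnexin) at 1.74 and 1.72 times (0.837 and 0.819 over all UMIs) and Ero1lb at 0.745 and 0.757 of the B cell level. Hsp90b1 (GRP94) had 8155 and 9118 CPM against 518.6 and 495.7 CPM. Creld2, Txndc5 and Prdx4 were 27.1-fold to 34.1-fold higher, while Hspa5 (BiP), the main heavy-chain chaperone, was 5.61-fold and 5.27-fold higher. Of 20 genes of ER entry and signal peptide removal 17 were called higher, of 16 of N-glycosylation 12, of 18 of transport between ER and Golgi 16, and of 16 of ER-associated degradation 11. None of these was called lower with the main scaling, and 15.3% of all genes were called higher. Scaled over all UMIs, where 682 of 11087 genes were called higher and 5883 lower, 21 of 24 chaperones were higher and 1 lower. The other lists then had 13 of 20, 7 of 16, 7 of 18 and 6 of 16 higher, with 1 gene of N-glycosylation and 3 of degradation called lower. Examples are the signal peptidase subunit Sec11c at 11.8-fold and 14.6-fold, the cargo receptor Lman1 at 19.1-fold and 26.2-fold, and Edem1, which marks misfolded glycoproteins, at 26.0-fold and 47.6-fold. Of 18 genes for amino acid supply and tRNA charging 12 were called higher (3 over all UMIs), among them asparagine synthetase Asns at 24.8-fold and 14.5-fold.

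**Figure D3:**
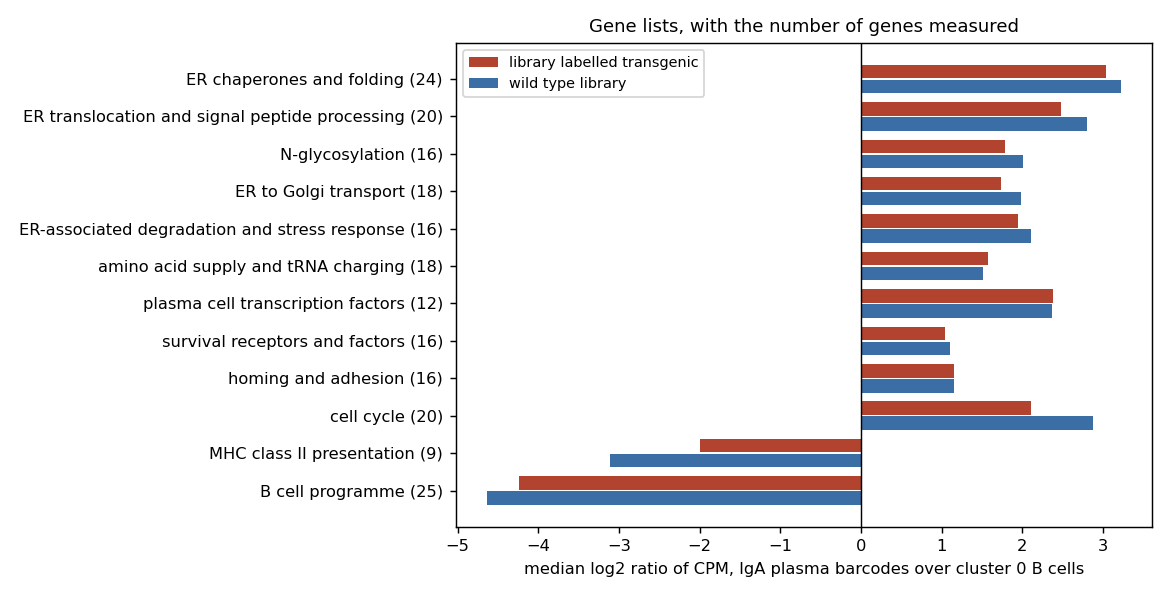
Median log2 ratio of CPM, IgA plasma barcodes over cluster 0 B cells, for 12 gene lists with the number of genes measured, red for the library labelled transgenic and blue for the wild type library. The ER chaperone list reaches 3.04 and 3.22, and the B cell programme -4.24 and -4.63.

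The ER stress response element, to which ATF6 binds together with NF-Y and which XBP1 also uses, was looked for in RefSeq promoters (GRCm38.p6, 250 bases before to 50 after the start site). The letters searched were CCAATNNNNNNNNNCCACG on both strands. It was in 39 of 32851 promoters (0.119%). It was in 7 of 20 promoters of the ER chaperone list (35.0%: Hspa5, Calr, Hsp90b1, Canx, Pdia6, Dnajc3 and Creld2), in 2 of 16 of the degradation list (Derl3 and Syvn1), and in 0 of 15, 0 of 14 and 0 of 15 of the ER entry, N-glycosylation and transport lists. The B cell programme had it in 0 of 16. A match is a description of letters and not evidence of binding. The stretches around the match in 5 of these promoters, of chaperone genes and of Derl3, the element-bearing gene with the largest difference from B cells, follow 5′ to 3′ on the gene's strand, with the match in capitals. A match on the other strand begins with CGTGG.

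Hspa5 (chr2:34771995-34772073, plus strand): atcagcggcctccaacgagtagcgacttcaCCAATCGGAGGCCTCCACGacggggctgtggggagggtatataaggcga
Hsp90b1 (chr10:86705503-86705686, minus strand): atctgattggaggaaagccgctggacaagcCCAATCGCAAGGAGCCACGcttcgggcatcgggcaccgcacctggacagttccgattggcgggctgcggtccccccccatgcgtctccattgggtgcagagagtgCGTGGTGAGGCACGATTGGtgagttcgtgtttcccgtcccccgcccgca
Creld2 (chr15:88819490-88819568, plus strand): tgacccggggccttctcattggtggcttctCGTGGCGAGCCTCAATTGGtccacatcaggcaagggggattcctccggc
Derl3 (chr10:75893212-75893290, plus strand): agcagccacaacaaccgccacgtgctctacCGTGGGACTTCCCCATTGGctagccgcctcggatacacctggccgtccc
Canx (chr11:50325770-50325848, minus strand): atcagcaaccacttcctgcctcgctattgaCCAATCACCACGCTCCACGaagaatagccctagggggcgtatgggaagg

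Hsp90b1 holds the element in both orientations. Derl3, which draws misfolded proteins out of the ER, was 75.3-fold and 69.1-fold higher in IgA plasma barcodes. Canx, with 1 match, was under 2-fold with the main scaling.

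The B cell programme was lower almost throughout. Of 25 genes, 24 were called lower and 0 higher (13.9% of all genes were called lower), with a median log2 ratio of -4.24 and -4.63. Cxcr5, the receptor that leads B cells into follicles, had 5.34 and 4.25 CPM in IgA plasma barcodes against 230.5 and 241.9 CPM in B cells. Pax5, the factor that holds B cell identity and that Prdm1 represses, had 6.75 and 4.09 CPM against 209 and 164 CPM. The 15 genes that ranked lowest were Cxcr5, Fcmr, Ccr7, Fcer2a, Bank1, Hs3st1, Ebf1, Pax5, Ms4a1, Snn, Tmem108, Cr2, Cd22, Spib and Bcl11a. Cd79a, a signalling chain of the B cell receptor, was retained in part, at 999.7 and 863.3 CPM against 3799 and 3957 CPM. Of 9 genes of MHC class II presentation 8 were called lower, and Cd74, the invariant chain, stayed at 10668 and 9285 CPM against 25232 and 30246 CPM.

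Homing and survival genes were mixed. Of 16 homing and adhesion genes, 8 were called higher and 3 lower, against 15.3% and 13.9% of all genes, so the count lower was near that of all genes. Over all UMIs the counts were 3 and 3, against 682 higher and 5883 lower of 11087 genes. Itgb7, a chain of the gut-homing integrin, was at 2.46 and 2.09 times the B cell level, though at 0.991 times in the wild type library over all UMIs. Its partner chain Itga4 was at 1.31 and 1.35 times, and at 0.633 and 0.639 times over all UMIs. Ccr9, the receptor for the small-bowel chemokine CCL25, was low, at 15.6 and 11.5 CPM. Cxcr4, the receptor for bone marrow retention, was lower, at 64.7 and 34.6 CPM against 497.7 and 360.9 CPM in B cells, and S1pr1, used to leave tissue, was at 0.0487 and 0.0412 of the B cell level. Of 16 survival genes, 7 were called higher and 3 lower (4 and 6 over all UMIs), to be read against the same shares and counts of all genes. Cd28, a co-stimulatory receptor known to sustain plasma cells, was at 187.7 and 228.3 CPM against 4.92 and 2.75 CPM, and Tnfrsf13b (TACI) was at 1.87 and 2.38 times the B cell level, with 0.899 in the library labelled transgenic over all UMIs. Tnfrsf13c, the BAFF receptor of naive B cells, was lower, at 32.3 and 43.4 CPM against 219.3 and 252.1 CPM. Il10 was called higher than in B cells, at 14.8 and 9.65 CPM, and 5 barcodes held 25.9% and 29.7% of its UMIs. Thinned in the same way, it was seen in 1.56% and 1.09% of IgA plasma barcodes against 0.14% and 0.087% of B cells.

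IgA plasma barcodes were not uniform. Going from barcodes with 5 to 20% immunoglobulin to those with 20 to 40, 40 to 60 and 60 to 100%, Xbp1 was at 854, 1955, 3312 and 4245 CPM in the library labelled transgenic and at 1388, 2362, 3984 and 5088 CPM in the wild type library. Jchain had 15288 CPM in the lowest and 198565 CPM in the highest bin of the library labelled transgenic, and 14684 and 201023 CPM in those of the wild type library. Across the same bins Mki67, a marker of cycling cells, was at 396, 245, 131 and 42.8 CPM in the library labelled transgenic and at 457, 341, 113 and 64.1 CPM in the wild type library. The MHC class II gene H2-Aa was at 3413, 2753, 1085 and 287 CPM and at 1359, 794, 455 and 277 CPM. Defining markers of other cell types, at 5419, 2911, 1319 and 524 CPM and at 10107, 3258, 3042 and 1276 CPM, moved with the bins in the same direction as H2-Aa and Mki67, and their part in this pattern was not tested. The bins were cut by immunoglobulin itself and hold 89, 244, 359 and 309 barcodes in the library labelled transgenic and 43, 220, 457 and 411 in the wild type library.

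Some of the barcodes were rich in cell-cycle transcripts. At least 20 cell-cycle UMIs per 10000 were found in 144 of 1001 barcodes (14.4%, 12.3 to 16.7%) and in 161 of 1131 (14.2%, 12.2 to 16.4%), and 115 and 71 barcodes lay near this limit, between 10 and 40. Against the other IgA plasma barcodes, these had 0.380 and 0.319 times the Jchain level, 0.597 and 0.526 times the Xbp1 level, 0.565 and 0.503 times the Sdc1 level and 0.362 and 0.408 times the Slpi level. Genes of the ER differed among themselves. Hspa5 was at 0.996 (0.967 to 1.03) and 1.20 and Hsp90b1 at 0.989 and 1.27, while Pdia4, an ER disulfide isomerase, was at 0.869 (0.834 to 0.906) and 0.987, and Derl3 at 0.629 and 0.821. Mzb1 was at 1.02 and 1.101. As a group, IgA plasma barcodes had 15 of 20 cell-cycle genes called higher than B cells and 0 lower, against 15.3% and 13.9% of all genes. Over all UMIs the counts were 10 and 1, against 682 and 5883 of 11087 genes.

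Most barcodes were led by 1 heavy and 1 light variable (V) segment, the germline pieces that rearrangement joins into an antibody gene. A heavy V segment with at least 3 UMIs led in 958 and 1121 barcodes and a light one in 983 and 1130. The leading segment held a median of 99.4% and 99.4% of heavy V UMIs and 97.7% and 96.5% of light V UMIs. The libraries drew on 70 and 69 heavy and 66 and 67 light segments. Of the barcodes with a called light chain, 69 of 995 (6.93%, 5.43 to 8.70%) and 66 of 1128 (5.85%, 4.55 to 7.38%) used lambda.

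The repertoires were uneven and differed between the libraries. A heavy and light pair was called in 957 and 1121 barcodes, in 287 and 249 different pairs. The 10 leading pairs held 315 barcodes (32.9%) in the library labelled transgenic and 551 barcodes (49.2%) in the wild type library, and 150 and 135 pairs were seen in a single barcode. Ighv1-81 with Igkv1-117 led in the library labelled transgenic, with 123 barcodes (12.9%), against 2 barcodes in the wild type library. Ighv1-81 with Igkv1-110 followed, with 66 barcodes (6.90%) against 0 of 1121, which allows a share of up to 0.268%. In the wild type library Ighv1-64 with Igkv4-59 led; it had 0 of 957 barcodes in the library labelled transgenic, which allows up to 0.313%, and 185 barcodes (16.5%) in the wild type library. Ighv1-39 with Igkv1-117 had 0 and 105 barcodes. The pairs found in both libraries numbered 43, which is 14.98% of the pairs of the library labelled transgenic and 17.3% of those of the wild type library, and they held 28.3% and 16.0% of barcodes. Ighv1-26 with Iglv1 was frequent in both, with 14 barcodes (1.46%) and 37 barcodes (3.30%). Barcodes with the same pair are not shown to be 1 clone, since the junctions are not in a table of gene counts.

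**Figure D4:**
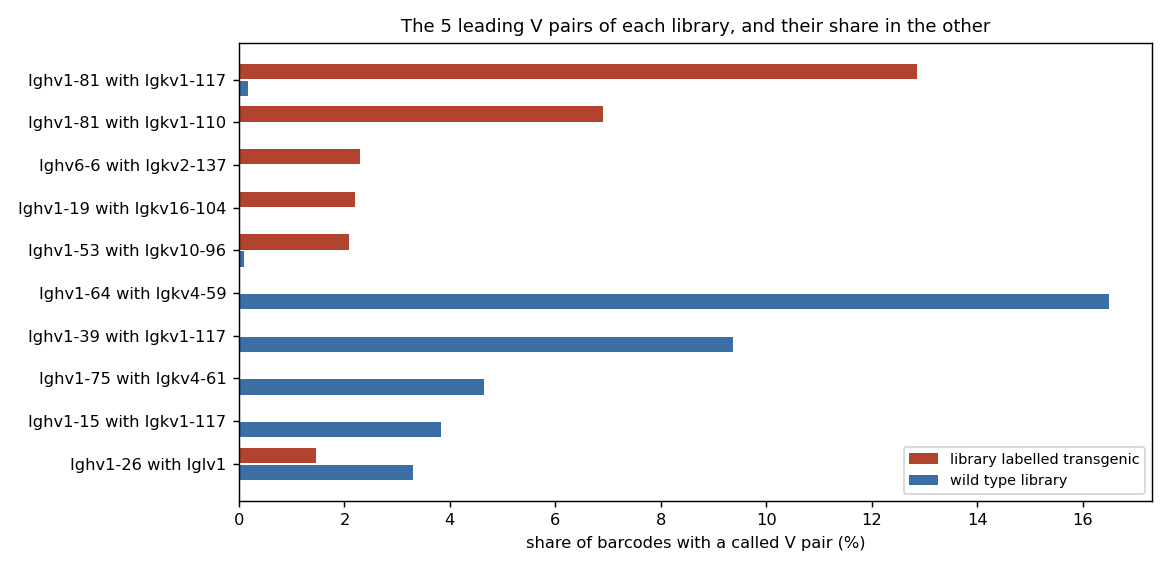
Share of barcodes with a called V pair (%) for the 5 leading pairs of each library, red for the library labelled transgenic and blue for the wild type library. The 5 pairs that lead in the library labelled transgenic have 0 to 2 barcodes in the wild type library, and of the 5 that lead in the wild type library Ighv1-26 with Iglv1 is the 1 found in both.

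Among single segments, Ighv1-81 (chr12:115920279-115920712, minus strand) led 24.01% of called barcodes in the library labelled transgenic and 0.803% in the wild type library. Ighv1-64 (chr12:115507545-115508031, minus strand) led 1.15% and 20.5%. Igkv1-117 (chr6:68121046-68121827, plus strand) led about the same share in both, 16.6% and 16.1%, though with different heavy segments. Igkv1-110 led 12.5% and 3.27%. The next 4 sequences are the first 290 bases of the germline V exons of the leading heavy segment of each library and of the 2 light segments paired with Ighv1-81, from the mm10 genome with the GENCODE vM21 annotation. Capitals mark the positions that differ between Ighv1-81 and Ighv1-64, and between Igkv1-117 and Igkv1-110.

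Ighv1-81 (chr12:115920294-115920583, minus strand): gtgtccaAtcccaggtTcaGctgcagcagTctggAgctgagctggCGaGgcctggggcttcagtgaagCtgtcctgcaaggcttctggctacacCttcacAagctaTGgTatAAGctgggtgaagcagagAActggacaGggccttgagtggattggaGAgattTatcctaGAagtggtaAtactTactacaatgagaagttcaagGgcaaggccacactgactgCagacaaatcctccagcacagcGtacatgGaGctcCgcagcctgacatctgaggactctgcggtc
Ighv1-64 (chr12:115507560-115507849, minus strand): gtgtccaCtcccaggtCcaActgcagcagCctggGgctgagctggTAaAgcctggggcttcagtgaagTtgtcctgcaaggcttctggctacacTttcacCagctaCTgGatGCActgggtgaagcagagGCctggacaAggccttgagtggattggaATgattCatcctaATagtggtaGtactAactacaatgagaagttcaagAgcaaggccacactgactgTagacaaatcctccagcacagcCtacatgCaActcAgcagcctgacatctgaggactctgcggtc
Igkv1-117 (chr6:68121515-68121804, plus strand): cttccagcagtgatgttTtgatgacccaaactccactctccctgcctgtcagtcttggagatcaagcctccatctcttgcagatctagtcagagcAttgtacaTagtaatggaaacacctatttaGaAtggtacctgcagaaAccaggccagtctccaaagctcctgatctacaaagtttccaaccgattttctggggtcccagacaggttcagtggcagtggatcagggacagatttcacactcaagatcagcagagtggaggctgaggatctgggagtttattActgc
Igkv1-110 (chr6:68270955-68271244, plus strand): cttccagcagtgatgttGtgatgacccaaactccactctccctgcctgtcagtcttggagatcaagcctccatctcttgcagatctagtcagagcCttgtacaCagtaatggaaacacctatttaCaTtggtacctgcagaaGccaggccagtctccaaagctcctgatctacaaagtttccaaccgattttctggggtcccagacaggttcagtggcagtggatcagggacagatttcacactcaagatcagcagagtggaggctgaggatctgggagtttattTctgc

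The heavy segments differ at 33 of these positions (89.2% identity over the whole exon) and the light segments at 7 (96.8%). Reads of near-identical segments can be split between them, so a call among such segments is uncertain. In the Ighv1-81 with Igkv1-117 barcodes a median of 0.116% of light V UMIs lay on Igkv1-110 (95th percentile 9.62%), and in the Ighv1-81 with Igkv1-110 barcodes a median of 0.159% lay on Igkv1-117 (95th percentile 5.49%). Ighv1-72, which leads 1.67% and 4.996% of barcodes, is 99.0% identical to Ighv1-62-3. Ighv1-64 has 4 other segments at 95% identity or more, the nearest being Ighv1-72 at 96.1%, and Ighv1-81 has 0, the nearest being Ighv1-85 at 92.8%.

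Barcodes of different V pairs also differed in genes outside the immunoglobulin loci. In pairs with at least 20 barcodes, Slpi ran between 2172 CPM (Ighv1-53 with Igkv10-96) and 3998 CPM (Ighv1-19 with Igkv16-104) in the library labelled transgenic. In the wild type library it ran between 327.3 CPM (Ighv1-72 with Igkv8-19) and 15454 CPM (Ighv1-26 with Iglv1). Ighv1-26 with Iglv1 had Slpi in 91.9% of its 37 wild type barcodes, with 60.7% of the UMIs in 5 of them, and 5071 CPM over 14 barcodes in the library labelled transgenic, with 94.3% in 5. The largest wild type pair, Ighv1-64 with Igkv4-59, had 1079 CPM. The Slpi ratio between libraries over all members, 1.25, is therefore a value over unlike mixtures of pairs. The other pairs with at least 20 barcodes had 30.2 to 96.3% of their Slpi UMIs in 5 barcodes.

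**Figure D5:**
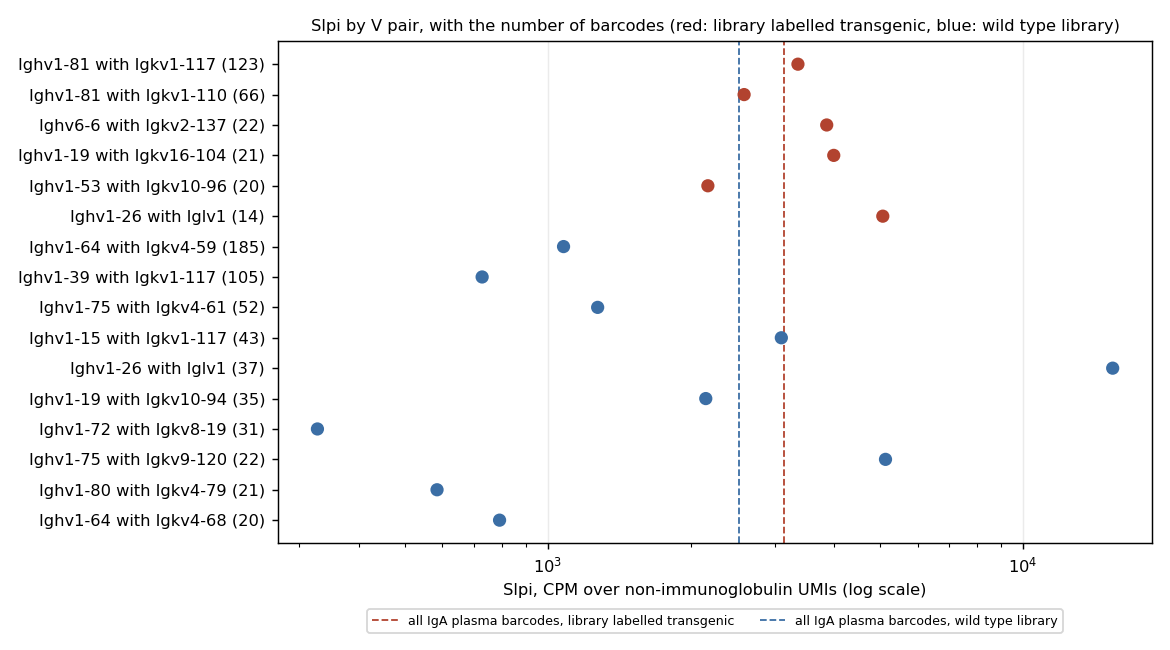
Slpi level (CPM over non-immunoglobulin UMIs, log scale) in each V pair with at least 20 barcodes and in Ighv1-26 with Iglv1, with the number of barcodes in brackets, red for the library labelled transgenic and blue for the wild type library, and dashed lines at the level over all IgA plasma barcodes. The wild type pairs spread from 327.3 to 15454 CPM, and those of the library labelled transgenic from 2172 to 5071 CPM.

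The leading pair of the wild type library held fewer barcodes rich in cell-cycle transcripts than its other pairs, and in the library labelled transgenic the intervals overlapped. The leading pair of the library labelled transgenic had 22 of 123 barcodes (17.9%, 11.6 to 25.8%) rich in cell-cycle transcripts, against 14.1% (11.9 to 16.7%) of barcodes of its other pairs. The leading wild type pair had 12 of 185 (6.49%, 3.40 to 11.1%), against 15.8% (13.5 to 18.3%) of barcodes of the other wild type pairs. Those other pairs were unlike each other. With at least 20 barcodes they ran from 4.55% (Ighv1-75 with Igkv9-120) to 33.3% (Ighv1-80 with Igkv4-79), so a low share was not particular to the leading pair. Hspa5 was lower in the leading pair than in the rest of the members in both libraries, at 0.824 and 0.712 times, and Ly6c2 was higher, at 1.49 and 1.43 times. Other pairs with at least 20 barcodes had Hspa5 at 2086 to 4537 CPM in the library labelled transgenic, against 2293 CPM in its leading pair. In the wild type library they had 1703 to 3412 CPM against 1947 CPM, so a low Hspa5 level was not particular to the leading pair. Ly6c2 reached 2104 and 1944 CPM in them, against 3102 and 2056 CPM in the leading pairs. Genes of other cells also differed in the leading pair: the macrophage gene Lyz2 was at 2.07 and 1.22 times, H2-Aa at 1.46 and 1.12 times and S100a8 at 0.0648 and 0.700 times, and their part was not tested.

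Between the libraries, IgA plasma barcodes of the library labelled transgenic had a larger share of UMIs on Igha and less Mzb1, Fkbp11 and Tigit. Few genes of the secretory lists passed the 1.5-fold limit. Of 10227 genes with at least 50 UMIs, 1526 (14.9%) were at least 1.5-fold higher and 311 (3.04%) at least 1.5-fold lower in the library labelled transgenic. With scaling by the median of ratios the split was 979 higher and 644 lower, and the median log2 ratio of all genes was 0.09 with the main scaling and -0.08 with that one. Igha had 119961 CPM in the library labelled transgenic and 83613 CPM in the wild type library, a ratio of 1.43 (1.43 to 1.44) and of 1.45 over all UMIs. Heavy V segments, counted apart from Igha, differed little, at 14.4% and 14.8% of UMIs. The light-chain constant genes were also higher (Igkc 3.61% and 2.83%, Iglc 0.517% and 0.388%), and light V segments were lower (kappa 26.1% and 28.6%, lambda 2.58% and 2.99%). Whether the split of UMIs between V and constant genes differed was not tested, so Igha alone does not give the level of heavy-chain transcripts. In V pairs with at least 20 barcodes, Igha took 4.77 to 6.63% of UMIs in the library labelled transgenic and 2.60 to 6.34% in the wild type library. The overlap came from the wild type pairs of Ighv1-64, at 5.14% with Igkv4-59 and 6.34% with Igkv4-68. The other wild type pairs lay at 2.60 to 3.88%, under the lowest pair of the library labelled transgenic. Jchain differed little, with a ratio of 1.00 (0.898 with median-of-ratios scaling).

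Several plasma cell genes lay below 1. Mzb1 had 6093 CPM in the library labelled transgenic and 8716 CPM in the wild type library. Its ratio of 0.699 (0.692 to 0.706) did not pass the 1.5-fold limit. Fkbp11, an ER prolyl isomerase, had 421.2 and 662 CPM, a ratio of 0.636 (0.613 to 0.660), and Tigit 173.6 and 287.1 CPM, a ratio of 0.605 (0.570 to 0.640). In V pairs with at least 20 barcodes the ranges of the libraries overlapped for all of these. Mzb1 ran from 5323 to 10764 CPM in the library labelled transgenic and from 6643 to 14172 CPM in the wild type library. Fkbp11 ran from 408.3 to 698.4 CPM and from 387.1 to 1053 CPM, and Tigit from 127.5 to 258.6 CPM and from 204.9 to 434.4 CPM. Xbp1 was at 0.816 and Ccr10 at 0.865. Above 1 were Ly6c2 at 1.44, Sdc1 at 1.28 and Tmem176b at 1.504. Of 24 ER chaperones 0 were called higher and 1 lower, of 20 ER entry genes 0 and 1, and of 18 transport genes 0 and 1, near the 3.04% of all genes called lower, with medians of -0.23, -0.26 and -0.31 on the log2 scale. With median-of-ratios scaling 4, 2 and 5 were called lower, against 644 of 10227 genes, so the counts then lay above the share of all genes. The members called lower with the main scaling were Fkbp11, the translocon subunit Ssr2 at 0.618 and the cargo protein Ergic1 at 0.598.

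The genes that ranked highest and lowest between the libraries were low beside their highest deposited cluster, though not always low in CPM. The 12 higher were Retnla, Lyz1, Mptx1, Cxcl9, Ccl5, Nkg7, Cd8a, Gzma, Gbp6, Il17a, Mcpt2 and Cd7, and the 12 lower were Lcn2, Ngp, Ltf, Saa3, Spp1, Wfdc21, Retnlg, S100a8, Chil3, Mmp8, S100a9 and Hp. All 24 were under 0.1 of their level in the highest deposited cluster in either or both libraries. Retnla, a product of alternatively activated macrophages, had 1321 and 6 UMIs, with 85.1% of the 1321 in 5 barcodes. S100a8, a neutrophil protein, had 36.4 CPM in the library labelled transgenic and 758.3 CPM in the wild type library, with 90.6% and 60.5% of UMIs in 5 barcodes. Ngp, also of neutrophils, had 0 and 672 UMIs.

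Defining markers of other cell types also differed between the libraries. In IgA plasma barcodes 7 T cell markers summed to 200.5 CPM in the library labelled transgenic and 52.6 CPM in the wild type library, 6 macrophage markers to 966.9 and 623.3 CPM, 5 dendritic cell markers to 59.4 and 19.6 CPM, and 5 neutrophil markers to 113.1 and 1876 CPM. A few barcodes carried much of this: 20 barcodes held 31.7% and 59.4% of the T cell marker UMIs, 40% and 57.9% of the macrophage ones and 95.4% and 94.7% of the neutrophil ones. At least 3 T cell UMIs were in 14.1% and 3.63% of barcodes, at least 3 macrophage UMIs in 19.1% and 12.9%, and at least 3 neutrophil UMIs in 1.099% and 11.8%. Of 4 mast cell markers 1 was at 0 in each library, and no marker of the other lists was at 0. Epithelial markers, at 349.6 and 330 CPM, include Epcam, which was found in 64.9% and 77.5% of IgA plasma barcodes at 2.35-fold and 2.14-fold the B cell level.

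A narrower set was therefore read beside the full one, chosen after seeing the data: the 543 (54.2%) and 536 (47.4%) IgA plasma barcodes with under 3 UMIs over 34 defining markers of other cell types, Epcam left out. In it 8132 genes had at least 50 UMIs, and 813 were higher and 254 lower. Markers of other cells still differed between the libraries in this set. Of 2 neutrophil markers 2 were called lower (median log2 ratio -4.76), and of 2 mast cell markers 2 were called higher (2.43). Of 2 T cell markers 1 was called higher, and of 3 macrophage markers 0 were called higher and 1 lower. Of the genes that ranked highest there and were above the free-RNA level, Vim, an intermediate filament protein, had 1249 CPM in the library labelled transgenic and 404.2 CPM in the wild type library, a ratio of 3.09 (2.94 to 3.25), and was at 2.87 over all members. Crip1 had 1754 and 752.9 CPM, a ratio of 2.33 (2.24 to 2.42), and Lmna, a nuclear lamina protein, a ratio of 3.24 (2.82 to 3.74). Ifi27l2a, an interferon-induced gene, was at 2.88 (2.64 to 3.14), and Cd2, an adhesion receptor of lymphocytes, at 2.68 (2.24 to 3.23). Lower were Ipmk, a kinase of inositol phosphates, at 0.329 (0.272 to 0.396), Rnase2b at 0.385 (0.322 to 0.460) and Rrm2, a subunit of ribonucleotide reductase, at 0.442 (0.380 to 0.513). Igha was at 1.53, Mzb1 at 0.757, Fkbp11 at 0.690, Tigit at 0.632 and Ly6c2 at 1.42 in these barcodes, while Ccr10 was at 0.983 (0.937 to 1.03).

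Many antigen presentation and B cell genes were called higher in the library labelled transgenic. Nearly all of them were under 0.1 of their level in the highest deposited cluster in either or both libraries. Of 9 MHC class II genes 8 were called higher and 0 lower over all members, against 14.9% and 3.04% of all genes. In the barcodes with few markers of other cells 5 and 0 were, where 813 of 8132 genes were called higher. H2-Aa had 1460 CPM in the library labelled transgenic and 535.6 CPM in the wild type library, a ratio of 2.73, which was 1.68 (1.56 to 1.80) in the barcodes with few such markers. Of 25 B cell programme genes 11 were called higher and 0 lower, and 9 of 20 and 0 in those barcodes. With median-of-ratios scaling the counts higher over all members were 8 and 7, against 979 of 10227 genes. All 8 of the class II genes called higher and 10 of the 11 B cell genes (all but Cd55) were at the free-RNA level. That is under 0.1 of the level in their highest deposited cluster in either or both libraries, so the library labelled transgenic may lie above it. The part of RNA from other cells in these differences was not tested. Of 12 interferon-response genes 7 were called higher and 1 lower over all members, and 4 of 9 and 1 in the barcodes with few markers of other cells. These are to be read against the same shares and counts of all genes. The difference between the libraries was also present in B cells: the interferon-response list summed to 2070 CPM in the library labelled transgenic and 1389 CPM in the wild type library in IgA plasma barcodes, and to 969.6 and 619.1 CPM in B cells. Ifi27l2a had 451.1 and 190 CPM in IgA plasma barcodes and 487.6 and 265.3 CPM in B cells. Among the members was Bst2, a surface antigen of plasma cells, at 1243 and 913.6 CPM, a ratio of 1.36. Of 20 cell-cycle genes 0 were called higher and 5 lower (Cdk1, Cdc20, Rrm2, Cenpf and Nusap1), against 14.9% and 3.04% of all genes. In the barcodes with few markers of other cells 0 and 6 were. With median-of-ratios scaling 0 and 10 were over all members, against 979 and 644 of 10227 genes. The share of barcodes rich in cell-cycle transcripts was 14.4% and 14.2%. Nfil3 had 24.6 CPM in the library labelled transgenic and 22.3 CPM in the wild type library, a ratio of 1.101 (0.922 to 1.31), an interval that includes 1, and of 0.984 with median-of-ratios scaling.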

How the data were processed

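The deposited values are UMI counts per gene and barcode for 2 libraries, which the submitters' processing notes associate with Cell Ranger 5.0.0, Seurat 4.0 and mm10; the roles of these tools are not given in the sources used here. The authors' deposited cell table gives cluster numbers and, for each cell, the UMI and gene counts and the percent of UMIs on mitochondrial and immunoglobulin genes, per the file headers. All 32285 genes were read, and 38 repeated symbols kept their own rows. CPM and ratios were computed from summed counts with Python 3.11.15, numpy 2.4.6, scipy 1.17.1 and pandas 2.3.3. Genes needed 50 UMIs. A call meant at least 2-fold the same way in both libraries against B cells, or at least 1.5-fold between libraries. Intervals are exact (Clopper-Pearson for shares, conditional binomial for ratios). With 1 library per genotype no test was run. The ratio, its interval and the fold calls were tested on simulated counts, drawn independently for each gene. These do not hold UMIs gathered in a few barcodes, and the other steps were not simulated.

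Named genes are the 15 that ranked highest and lowest against B cells and the 12 each way between libraries, by the interval bound nearest to 1, without receptor segments, haemoglobin, mitochondrial, ribosomal and predicted genes, plus fixed plasma cell genes and list members. Further genes were chosen after their values were seen. Genes under 0.1 of their level in the highest deposited cluster, in either or both libraries, are called at the free-RNA level. This limit is a fixed share and was not measured from empty droplets. The members and lists were chosen with earlier results of these data known.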

Additional observations from a re-analysis of the deposited data

Results flagged for a closer look

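In 4 genes the difference from B cells ran in opposite directions in the 2 libraries, and the difference between the libraries was not tested. Retnla was at 10.2 times the B cell level in the library labelled transgenic (1321 UMIs in IgA plasma barcodes, 69 in B cells) and at 0.117 times in the wild type library (6 and 26 UMIs). Lyz1 was at 6.36 times (203 and 17 UMIs) and 0.421 times (5 and 6 UMIs). Cxcl9 was at 4.83 times (127 and 14 UMIs) and 0.217 times (3 and 7 UMIs). Wfdc21 was at 0.320 times (3 and 5 UMIs) and 3.24 times (308 and 48 UMIs). In all, 22 genes were at least 2-fold apart from B cells in opposite directions. The 4 named here were under 0.1 of their level in the highest deposited cluster in either or both libraries.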

How the results depend on the processing

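No paired analysis was possible because there is 1 library for each genotype, and for the same reason no replicate could be left out. Of the main shares and counts, 71 recomputed values stayed close and 23 moved. Among single genes and list counts 3519 stayed close, 1113 moved and 5 called values reversed. The share of IgA plasma barcodes was 9.15% in the library labelled transgenic with a UMI of each of Jchain, Mzb1 and Xbp1 required, and over other denominators 12.5% and 68.5% in that library and 14.9% and 79.6% in the wild type library. Against B cells, scaling over all UMIs gave 682 higher and 5883 lower, a minimum of 1 UMI 2889 higher, a 3-fold limit 1014 and 679, the full marker lists (35 and 12 barcodes left) 2606 lower, and the gene-number range of the deposited cells 1028 higher. Between libraries, median-of-ratios scaling gave 979 higher and 644 lower, a minimum of 20 UMIs 480 lower, of 1 UMI 4913 and 2186, a 2-fold limit 526 and 111, the full marker lists 20 and 16, the gene-number range 826 higher, and few markers of other cells 813 higher. Among genes called in the main analysis, the following crossed 1: Itgb7 against B cells in the wild type library over all UMIs (0.991), Ikzf3 with the full marker lists (1.03 and 1.14), Nfil3 in the wild type library there (0), and Isg15 between libraries in the gene-number range (0.978). Irf4, Itga4 and Canx, and Tnfrsf13b in the library labelled transgenic, were not called against B cells and crossed 1 over all UMIs. The cause was not tested.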
